A study of Mus musculus with 6 samples.

Results

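The 10 transcription factors described here steer blood cells toward granulocyte, monocyte or dendritic cell fates. They are Cebpa, Cebpb, Cebpd, Cebpe, Gfi1, Spi1, Klf4, Zeb2, Irf4 and Batf3, taken by symbol from the 32285 genes listed in each library, and each symbol matched 1 gene. Transcripts were counted in single cells of mice bearing tumors of EMT6, a mouse mammary carcinoma line. The mice were labelled Cysltr1 KO (deficient in Cysltr1, a receptor for cysteinyl leukotrienes) or were BALB/c controls labelled WT. Each genotype gave 3 libraries: bone marrow enriched for progenitors, and spleen and tumor enriched for CD45, the surface protein of leukocytes. Every library pooled cells of 3 mice, so there was 1 library per tissue and genotype, all mice carried tumors, and no age, sex or time was used here. The labels do not say which part of Cysltr1 was deleted.

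The C/EBP proteins are leucine zipper factors that act at successive stages of myeloid differentiation. C/EBPα is needed to form granulocyte and monocyte progenitors, C/EBPε to form the secondary granules of neutrophils, and C/EBPβ and C/EBPδ are known for demand-driven granulopoiesis and inflammatory transcription. Spi1, an ETS factor, is required across the myeloid lineage, Gfi1 is a repressor that favours granulocytes, and Klf4 and Zeb2 are known for their roles in monocytes. Irf4 is required for a part of the type 2 dendritic cells and Batf3 for type 1 dendritic cells.

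On GRCm38 (mm10), Cebpa lies on chromosome 7 (35119293 to 35121928, plus strand), Cebpb on chromosome 2 (167688915 to 167690418, plus strand), Cebpd on chromosome 16 (15887286 to 15891031, plus strand) and Cebpe on chromosome 14 (54710360 to 54712174, minus strand). Cebpa, Cebpb and Cebpd have a single exon in the GENCODE annotation, and Cebpe has 2. Gfi1 lies on chromosome 5 (107716657 to 107726036, minus strand), Spi1 on chromosome 2 (91082390 to 91115756, plus strand), Klf4 on chromosome 4 (55527143 to 55532466, minus strand) and Zeb2 on chromosome 2 (44983632 to 45117395, minus strand). Irf4 is on chromosome 13 (30749226 to 30766976, plus strand) and Batf3 on chromosome 1 (191097847 to 191108945, plus strand). On the opposite strand, Spidr overlaps Cebpd by 1808 bases, Tmem189 overlaps Cebpb by 908, Gm45091 overlaps Cebpa by 313, A430072P03Rik overlaps Gfi1 by 880 and Zeb2os overlaps Zeb2 by 3381. How the counting treated strand is not given in the sources used here, so reads from such pairs could be shared.

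Promoter windows from RefSeq (GRCm38.p6) were found for 7 of the 10 factors. Those of Cebpa, Cebpb and Klf4 are shown, because these 3 factors lay on opposite sides of the monocyte marker Ly6c2 in early progenitors, as described below. Each is the 120 bases before the annotated start, 5′ to 3′ on the gene's strand, at chr7:35119173-35119292, chr2:167688795-167688914 and chr4:55532476-55532595. Capitals mark matches on either strand to the motifs TATAAA (a core promoter box), TGACG (core letters bound by CREB and ATF factors) and GGGCGG (letters bound by Sp factors). The other motifs searched had no match in these 3 windows: CCAAT (bound by NF-Y), TTGCNNAA (a C/EBP pattern), GGAAGT (an ETS core) and a GFI1 pattern.
Cebpa: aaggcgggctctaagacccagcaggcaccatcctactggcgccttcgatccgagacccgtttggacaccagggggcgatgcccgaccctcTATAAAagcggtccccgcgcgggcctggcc
Cebpb: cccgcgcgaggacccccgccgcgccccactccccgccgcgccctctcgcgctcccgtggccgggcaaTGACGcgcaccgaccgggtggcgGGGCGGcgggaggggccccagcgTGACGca
Klf4: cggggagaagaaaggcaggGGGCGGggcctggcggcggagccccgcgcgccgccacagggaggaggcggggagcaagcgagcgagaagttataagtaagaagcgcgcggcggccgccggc
TATAAA occurs in 6.34%, TGACG in 11.7%, GGGCGG in 26.5%, CCAAT in 21.3%, TTGCNNAA in 4.15%, GGAAGT in 11.6% and the GFI1 pattern in 1.03% of the 32851 windows of this length. The TATAAA of Cebpa begins 30 bases before the start, and the TGACG matches of Cebpb begin 53 and 7 bases before it. These matches are letters in a window and are not shown to be bound.

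The filters left 6054 cells labelled KO and 5011 labelled WT from marrow, 7702 and 8307 from spleen, and 5992 and 7929 from tumor. Median UMIs (unique transcript tags) per kept cell ran from 2319.5 to 12744, with marrow at 6328.5 in the library labelled KO and 12744 in the library labelled WT. Pairs of libraries shared 46 to 128 cell barcodes. Cysltr1 itself went against the label in marrow (24.5 CPM, UMIs of the gene scaled to a fixed total, in the library labelled KO and 4.79 CPM in the library labelled WT) and in spleen (32.8 and 6.89 CPM), but not in tumor (6.97 and 9.96 CPM). Whether the counted end of the gene lies outside the deleted part is not given in the sources used here, so genotypes are given as labelled throughout. No difference between libraries has a replicate check, and no p-value is given. Intervals are 95% intervals for counting error only.

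Cells were grouped by gates, ranges of genes that are none of the 10 factors. In marrow these gates were Hlf cells (Hlf marks stem and early progenitors), Mpo-high cells, Elane-high cells (both cut on granule protease or peroxidase genes of progenitors), Ngp-high cells (cut on a secondary granule gene), mature neutrophils, Ly6c2 monocytes and, as a background without myeloid fate, erythroid cells. They held 204, 356, 1153, 793, 582, 692 and 264 cells in the library labelled KO and 393, 488, 1253, 370, 146, 382 and 165 cells in the library labelled WT. Gene levels are the CPM of all UMIs of a gate. Cd34, a progenitor gene that no gate used, was at 309 and 318 CPM in Hlf cells, 197 and 151 CPM in Mpo-high cells and at most 28.3 and 24.0 CPM from Elane-high cells onward in the libraries labelled KO and WT.

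Cebpa, the factor of granulocyte and monocyte progenitors, was highest within marrow in Mpo-high cells. It stood at 37.4 CPM in Hlf cells, 55.0 in Mpo-high cells, 28.5 in Elane-high cells, 5.18 in Ngp-high cells, 14.8 in mature neutrophils and 47.3 in Ly6c2 monocytes labelled KO. In the library labelled WT the same gates had 45.7, 67.2, 39.3, 8.24, 34.1 and 57.2 CPM. Both libraries thus had a low in Ngp-high cells and a second high in monocytes. Erythroid cells had 2.68 and 2.43 CPM. At 1000 UMIs per cell, a Cebpa UMI was seen in 5.23% of Mpo-high cells labelled KO and 7.08% labelled WT, against 0.498% and 0.506% of erythroid cells. Without thinning, 40.45% and 57.2% of Mpo-high cells had one, in libraries of unequal depth.

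Cebpb, the factor of demand-driven granulopoiesis, was higher in mature neutrophils and in Ly6c2 monocytes than in the other marrow gates. In the library labelled KO it had 127 CPM in Hlf cells, 307 in Mpo-high cells, 345 in Elane-high cells, 394.5 in Ngp-high cells, 2158 in mature neutrophils and 1196 in Ly6c2 monocytes. In the library labelled WT it had 138, 359, 342, 403, 2261 and 1283 CPM. Mature neutrophils were thus several-fold above Ngp-high cells in both libraries, and erythroid cells were at 23.0 and 28.2 CPM.

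Cebpd, a factor of acute inflammatory transcription, increased at every gate of the neutrophil branch. Cells labelled KO had 17.0 CPM (Hlf), 126 (Mpo-high), 281 (Elane-high), 508 (Ngp-high) and 833 (mature), with 288.5 in monocytes. Cells labelled WT had 30.7, 121, 228, 425 and 570 CPM, with 229.5 in monocytes. In both libraries the intervals of successive neutrophil gates did not overlap.

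Cebpe, the factor of secondary granules, was high over a narrow stretch of the neutrophil branch. It had 2.55 and 5.21 CPM in Hlf cells, 24.5 and 20.4 in Mpo-high cells, 215 and 185 in Elane-high cells, 411 and 417.5 in Ngp-high cells and then only 18.9 and 29.0 CPM in mature neutrophils labelled KO and WT. Monocytes had 18.6 and 20.1 CPM. Erythroid cells had 0 UMIs labelled KO, which at a floor of 3 counts allows up to 0.804 CPM, and 1.52 CPM (5 UMIs) labelled WT. A Cebpe UMI was found at 1000 UMIs per cell in 27.0% and 29.6% of Ngp-high cells and in 1.87% and 2.29% of mature neutrophils.

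Gfi1, a transcriptional repressor that favours granulocytes, had its single marrow high in Elane-high cells, 1 gate earlier than Cebpe. It had 17.0 and 19.1 CPM in Hlf cells, 11.6 and 17.4 in Mpo-high cells, 82.7 and 79.8 in Elane-high cells and 19.1 and 21.2 in Ngp-high cells labelled KO and WT. Ly6c2 monocytes held 6 UMIs in either library, or 1.24 and 1.01 CPM, near the 0.268 and 0.910 CPM of erythroid cells.

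Spi1, the ETS factor of the whole myeloid lineage, was present in every myeloid gate and varied less than the others. Its levels were 147 and 121.5 CPM in Hlf cells, 273.5 and 244 in Mpo-high cells, 237 and 218 in Elane-high cells, 488 and 432 in Ngp-high cells, 878.5 and 729 in mature neutrophils and 438 and 396 in monocytes labelled KO and WT. Erythroid cells had 7.77 and 14.3 CPM.

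Klf4 and Zeb2, both known in monocytes, were low in Ngp-high cells and high in monocytes, but not alike before that. Klf4 had 56.0 and 75.2 CPM in Hlf cells, 81.0 and 82.2 in Mpo-high cells, 6.42 and 4.01 in Elane-high cells, 0.829 (4 UMIs) and 0.446 (2 UMIs) in Ngp-high cells and 379 and 371 in Ly6c2 monocytes. Zeb2, a zinc finger factor, had 118 and 120.1 CPM in Hlf cells, 270.3 and 242 in Mpo-high cells, 76.6 and 74.5 in Elane-high cells, 9.53 and 8.24 in Ngp-high cells and 427 and 363 in monocytes labelled KO and WT. In mature neutrophils Zeb2 was back at 46.9 and 56.3 CPM, but erythroid cells had 76.9 and 77.7 CPM, so Zeb2 was not limited to myeloid cells. Irf4 and Batf3, the dendritic cell factors, were at most 1.24 CPM (Irf4) and 6.82 CPM (Batf3) in these marrow gates.

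**Figure D1:**
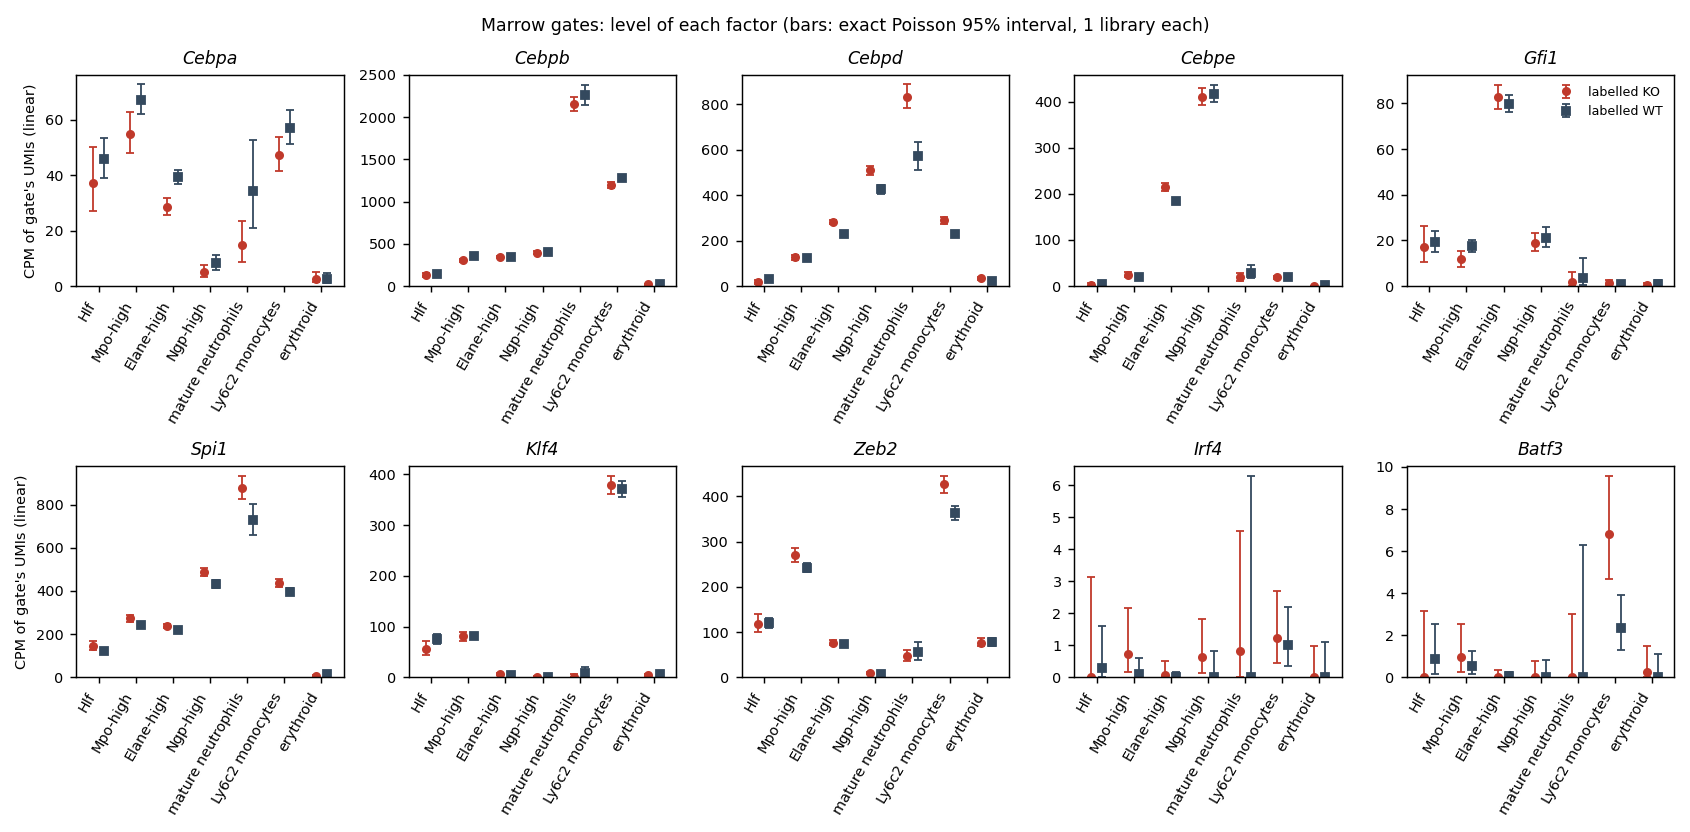
CPM of the 10 factors (1 panel each, linear axis starting at 0) in 7 marrow gates, red circles for the library labelled KO and dark squares for the library labelled WT, with exact Poisson 95% intervals. Gfi1 peaks in Elane-high cells at 82.7 and 79.8 CPM, Cebpe in Ngp-high cells at 411 and 417.5 CPM, and Klf4 in Ly6c2 monocytes at 379 and 371 CPM.

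Mpo-high cells were a mixture that Ly6c2, a monocyte surface gene, separated. Cells with at least 5 Ly6c2 UMIs per 10000 (133 labelled KO and 184 labelled WT) were set against those under 1 per 10000 (170 and 216 cells). This split was added after the data were seen. Klf4 had 183 and 175 CPM in the Ly6c2-positive cells and 9.35 and 6.84 CPM in the Ly6c2-low cells labelled KO and WT. Cebpb had 585 and 629 CPM in the first and 96.8 and 125 CPM in the second. Both factors were thus high where Ly6c2 was high, in either library, with intervals far apart. Irf8, a monocyte and dendritic cell factor from the list of other fate factors, followed the same side with 491 and 485 against 182.5 and 174 CPM.

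Cebpd and Spi1 were also higher in Ly6c2-positive than in Ly6c2-low cells. Cebpd had 174 and 162 against 84.7 and 72.3 CPM labelled KO and WT. Spi1 had 346 and 282 against 213 and 196 CPM. Gfi1, Cebpe and Cebpa lay on the other side of the split. Gfi1 had 4.99 and 3.58 CPM in Ly6c2-positive and 18.1 and 35.7 CPM in Ly6c2-low cells labelled KO and WT, Cebpe 11.2 and 13.04 against 42.9 and 35.1 CPM, and Cebpa 42.4 and 45.01 against 72.0 and 97.9 CPM. In each library the intervals of the 2 sides did not overlap for these 3 factors. Zeb2 stayed high on both sides, at 306 and 254 CPM in the Ly6c2-positive and 213 and 215 CPM in the Ly6c2-low cells. Gata2, an early progenitor factor, had 0 UMIs and 1 UMI in Ly6c2-positive cells but 36.3 and 33.0 CPM in Ly6c2-low cells, so the Ly6c2-low cells also held an early progenitor gene.

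**Figure D2:**
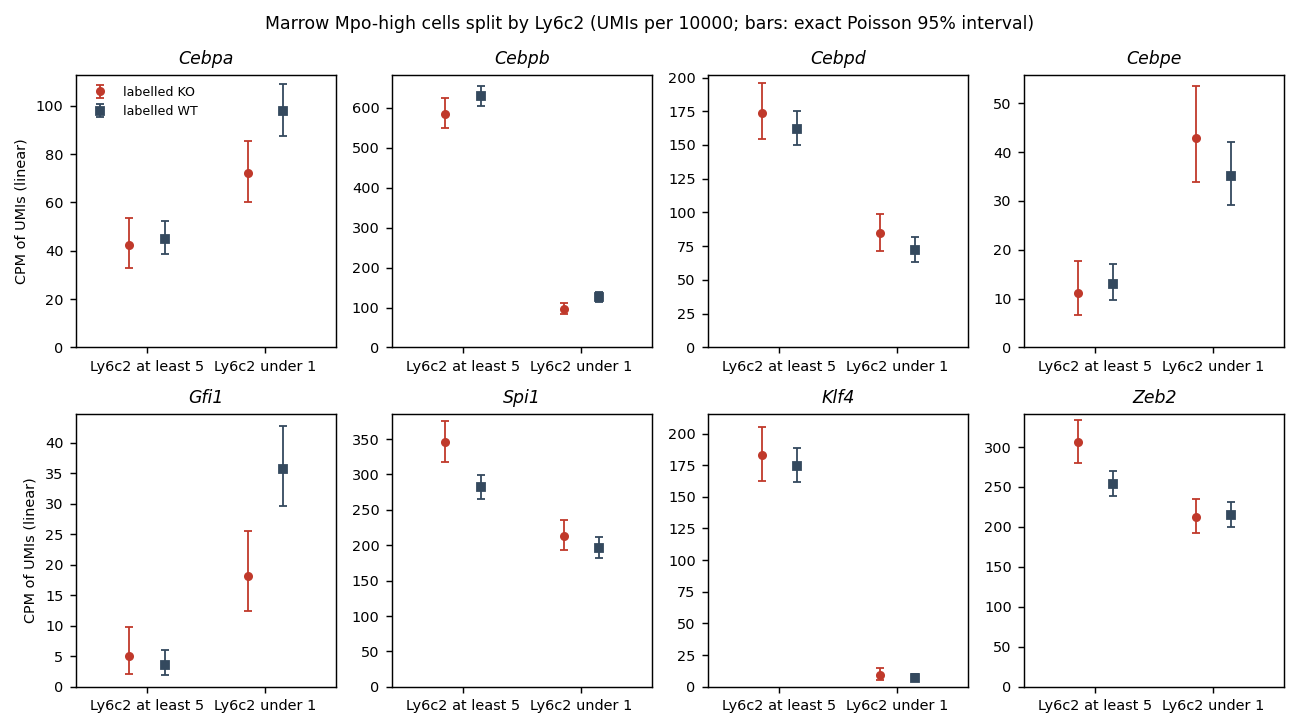
CPM of 8 factors (linear axes starting at 0) in marrow Mpo-high cells with at least 5 or under 1 Ly6c2 UMI per 10000, red circles labelled KO and dark squares labelled WT, with exact Poisson 95% intervals. Klf4 and Cebpb lie high on the Ly6c2-positive side and Gfi1, Cebpe and Cebpa on the other.

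The neutrophil branch was then cut into 7 steps by falling Elane and rising, later falling, Ngp, which was likewise added after the data were seen. Cebpe had 187, 305, 408, 498, 356, 28.0 and 10.9 CPM over steps 1 to 7 in the library labelled KO and 159, 265, 313, 439, 400.5, 55.7 and 8.96 CPM in the library labelled WT. Its high was at step 4, Ngp-high cells that still had at least 50 Elane UMIs per 10000, in both, although labelled WT the intervals of steps 4 and 5 overlapped. Gfi1 held a plateau of 80.2, 91.1 and 79.9 CPM labelled KO and 78.1, 84.8 and 71.1 CPM labelled WT over the first 3 steps, and then 28.9 and 35.4 CPM at step 4.

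Cebpa and Zeb2 declined early along these steps. Cebpa had 31.2, 19.7, 11.3 and 4.28 CPM at steps 1 to 4 labelled KO and 42.8, 28.7, 19.7 and 11.5 CPM labelled WT. Zeb2 had 90.5 and 86.7 CPM at step 1, 9.09 and 8.98 CPM at step 4 and again 68.3 and 71.7 CPM at step 7. Cebpb lay between 322 and 463 CPM labelled KO and between 312 and 521 CPM labelled WT over steps 1 to 5, with the highest of these at step 3, and stood at 1541 and 1835 CPM at step 6 and 2706 and 2580 CPM at step 7. Spi1 was higher at each step than at the one before, up to 935 and 744 CPM at step 7, although the intervals of steps 6 and 7 overlapped in both libraries, and those of steps 2 and 3 labelled KO. The 53 and 93 WT-labelled cells of steps 6 and 7 also held 75.6 and 26.9 CPM of Gata2, against 0 and 3.11 CPM in the 231 and 351 cells labelled KO. The part of such cells in the WT levels of Cebpa (31.8 and 35.8 CPM) was not tested.

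**Figure D3:**
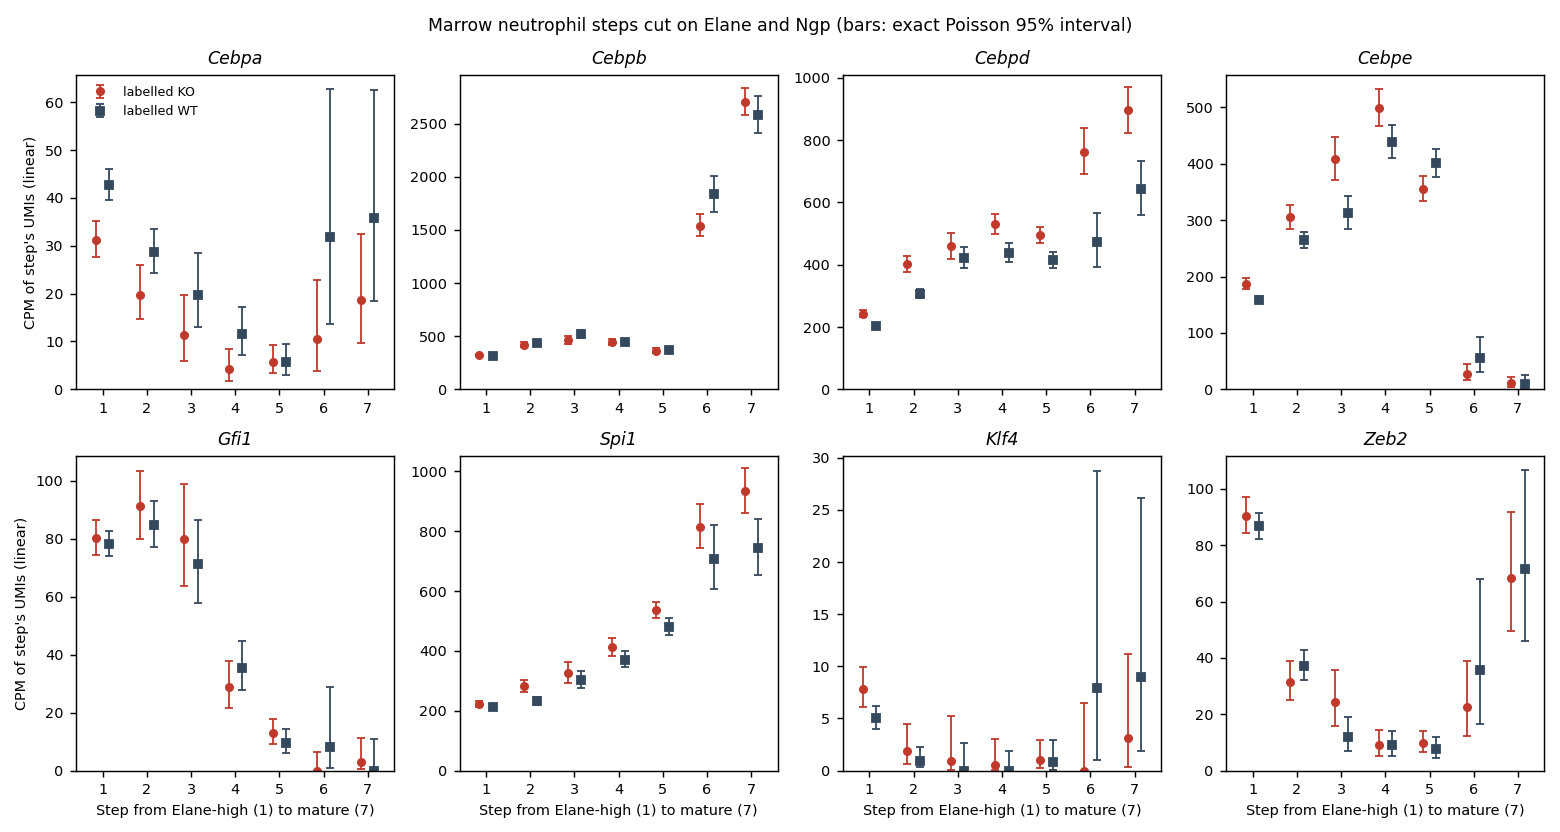
CPM of 8 factors (linear axes starting at 0) over 7 marrow steps from Elane-high cells (1) to mature neutrophils (7), red circles labelled KO and dark squares labelled WT, with exact Poisson 95% intervals. Gfi1 is highest over steps 1 to 3, Cebpe at step 4 (overlapping step 5 labelled WT) and Cebpb and Spi1 at step 7.

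Factors were also read together within single Elane-high cells thinned to 2000 UMIs, in 1 draw. Of cells with a Gfi1 UMI, 67 of 179 labelled KO (37.4%) and 65 of 201 labelled WT (32.3%) had a Cebpe UMI, against 31.5% and 29.9% of cells without Gfi1. A Klf4 UMI was in 0 of 179 and 0 of 201 cells with Gfi1, and in 17 of 953 and 5 of 1037 cells without it. At the floor of 3 counts, a count of 0 allows a share of up to 1.68% labelled KO and 1.49% labelled WT, against 1.78% and 0.482% of cells without Gfi1. This limit lay just below the share without Gfi1 labelled KO and above it labelled WT. The counts are too few at this depth to settle whether the share was lower.

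In the spleen, gates of 103 and 481 Ngp-high cells, 1041 and 2261 mature neutrophils, 64 and 57 Ly6c2 monocytes, 162 and 89 red pulp macrophages, 81 and 114 type 1 dendritic cells (Xcr1 and Clec9a) and 128 and 174 type 2 dendritic cells (Cd209a and Clec10a) were read in the libraries labelled KO and WT. Ly6c2-low monocytes (32 and 36 cells) were under the 50-cell minimum. Cebpb reached its highest level anywhere in spleen neutrophils, 5530 CPM (5443 to 5619) labelled KO and 5410 CPM (5351 to 5469) labelled WT. At 1000 UMIs per cell, 95.9% and 96.5% of these cells had a Cebpb UMI. Cebpd (998 and 915 CPM) and Spi1 (1294 and 1247 CPM) had their highest levels there as well.

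Cebpb was also read in lymphocytes, where free RNA gives a background. Spleen T cells had 166 and 216 CPM of Cebpb, which is 3.0% and 4.0% of the neutrophil level, whereas Cebpd in T cells was at 0.0324% and 0.258% and Spi1 at 0.195% and 0.451% of theirs. S100a8, an abundant neutrophil gene, was at 0.138% and 0.381%, but both gates cut on S100a8 and S100a9, which bounds that share. B cells had 222 and 216 CPM of Cebpb. Spi1 was at 129 and 126 CPM in B cells, against 2.52 and 5.62 CPM in T cells of the same libraries. The part of free RNA in these levels was not tested.

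Ngp-high cells of the spleen had 429 and 403 CPM of Cebpe, with intervals that overlapped those of marrow Ngp-high cells. Gfi1 was at 5.84 and 8.82 CPM and Cebpa at 1.06 and 2.29 CPM, below the marrow values, although the Cebpa intervals overlapped labelled KO. Cebpe then stood at 9.03 and 7.16 CPM in spleen mature neutrophils and Gfi1 at 3 UMIs in each library. Zeb2 was high in spleen monocytes (573 and 509 CPM) and red pulp macrophages (764 and 718 CPM), but had only 9.60 and 7.29 CPM in type 1 dendritic cells, against 236 and 213 CPM in type 2 dendritic cells.

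Batf3 and Irf4 had their myeloid highs in dendritic cells. Batf3 had 249.6 and 272 CPM in type 1 and 199 and 235 CPM in type 2 dendritic cells, and 69.0 and 82.4 CPM in red pulp macrophages. Labelled WT, the intervals of types 1 and 2 overlapped (247.5 to 298.5 and 210.2 to 263 CPM), and likewise labelled KO (221.5 to 280.3 and 172 to 229 CPM). Irf4 had 68.0 and 41.7 CPM in type 2 and 3.49 and 4.86 CPM in type 1 dendritic cells. Spleen B cells, in which Irf4 is known as a factor of plasma cell differentiation, had 249.4 and 178 CPM of it. Klf4 was likewise type 2, at 316 and 344 CPM against 31.4 and 51.01 CPM in type 1. Spi1 was high in both, at 471 and 430.0 CPM in type 1 and 546 and 619 CPM in type 2.

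In the tumor, mature neutrophils (931 and 936 cells) had Cebpb at 4222 and 3898 CPM, Cebpd at 165 and 113 CPM and Spi1 at 297 and 261 CPM, all below the spleen neutrophil levels given above. Zeb2 (313 and 317 CPM) and Klf4 (72.4 and 80.5 CPM) were above those of spleen neutrophils, where Klf4 had 11.6 and 11.2 CPM. The tumor neutrophil gate also held C1qa, a macrophage gene, at 132 and 158 CPM against 4.33 and 5.66 CPM in the spleen gate, and the part of macrophage RNA in these differences was not tested. C1q macrophages (413 and 544 cells) had the highest Cebpa level of all gates, 74.2 and 80.6 CPM, although the intervals overlapped those of Arg1-high cells in both libraries, and of tumor and spleen Ly6c2 monocytes and marrow Mpo-high cells labelled WT. Arg1-high, C1q-low cells (169 and 210 cells) had 597 and 572 CPM of Zeb2, 1831 and 1673 CPM of Cebpb and 168 and 153 CPM of Klf4. Keratin cells, a non-leukocyte gate, had 540.3 and 448 CPM of Cebpb and 157 and 148 CPM of Klf4, but 1.78 and 1.40 CPM of Spi1.

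**Figure D4:**
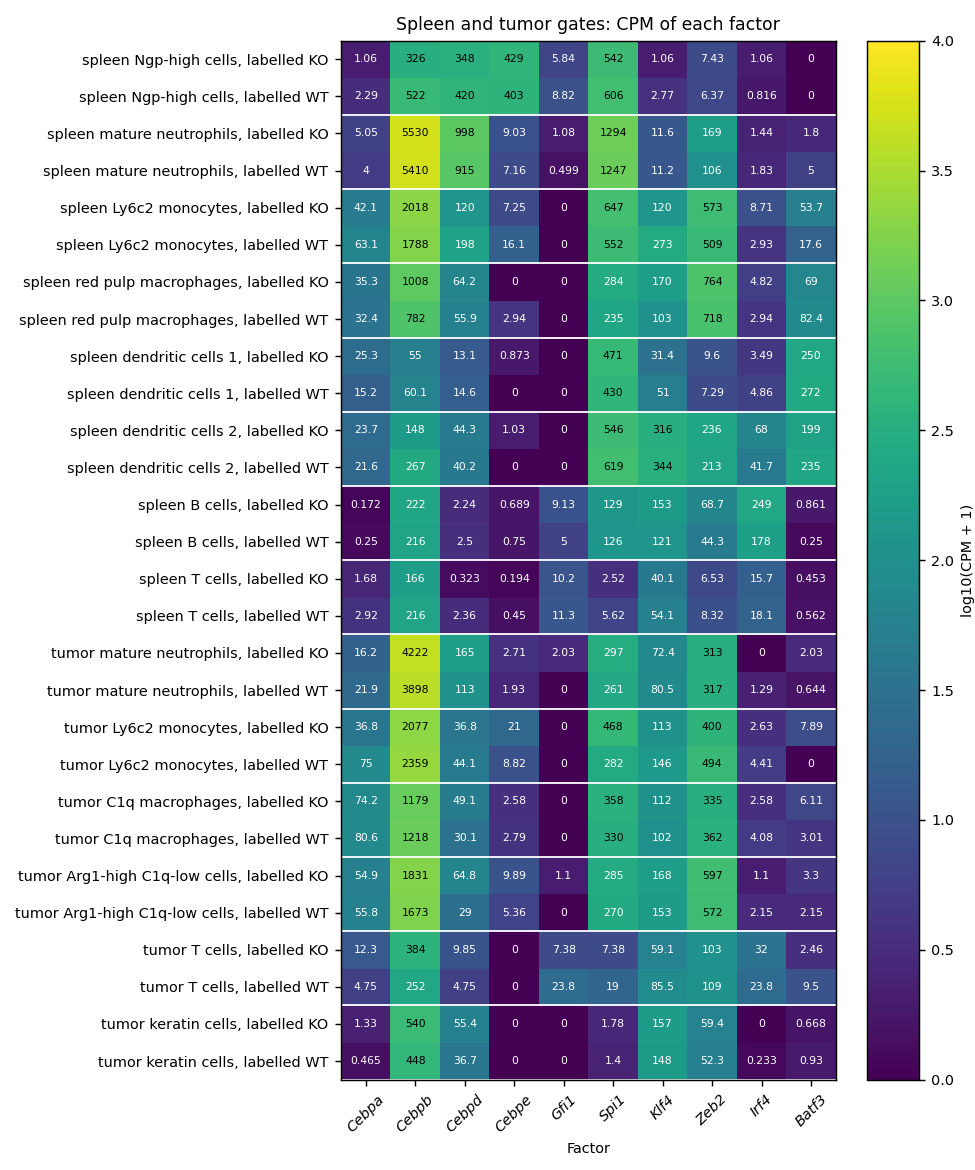
CPM of the 10 factors (columns) in spleen and tumor gates (rows, labelled KO above labelled WT), with colour giving log10(CPM + 1) and the printed value giving CPM. Cebpb is brightest in neutrophils of both tissues, Batf3 is raised in dendritic cells, and Cebpe in Ngp-high cells.

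Across all 21 gates per library, the order of levels was best resolved for Cebpb, where 10 of 20 neighbours in the order labelled KO and 6 of 20 labelled WT had overlapping intervals. For Cebpa, 19 of 20 neighbours labelled KO and 20 of 20 labelled WT overlapped, and the exception was C1q macrophages labelled KO, above Mpo-high cells. Cebpe, Gfi1, Irf4 and Batf3 had 18 or 19 overlapping neighbours, since most gates were near 0. Among the myeloid gates the highest was the same in both libraries for 9 factors, and Cebpe was highest in Ngp-high cells of the spleen (labelled KO) or of the marrow (labelled WT), whose levels overlapped.

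The libraries labelled KO and WT were compared per gate after each cell was thinned to 2000 UMIs in marrow and 1000 in spleen and tumor, with shallower cells left out, as the mean of 10 random draws. A factor was called where the levels differed at least 1.5-fold with intervals apart and at least 30 UMIs over both libraries. In marrow, 0 of 35 factor and gate pairs were called. Over all genes the same rule called 0.326% in Hlf cells, 0.41% in Mpo-high cells, 0.476% in Elane-high cells, 2.14% in Ngp-high cells, 4.3% in mature neutrophils and 1.29% in Ly6c2 monocytes, and a count of 0 in 35 is near these shares. Ratios of the library labelled KO to that labelled WT ran from 0.665 to 1.30. With all UMIs 2 of 44 pairs were called, both higher in the library labelled KO and both of low genes. The same rule with all UMIs called 1.6% of all genes in Hlf cells, 1.9% in Mpo-high cells, 2.01% in Elane-high cells, 3.45% in Ngp-high cells, 6.14% in mature neutrophils and 3.19% in monocytes. Klf4 in Elane-high cells had 6.42 and 4.01 CPM (72 and 86 UMIs, ratio 1.60, 1.15 to 2.21), and Batf3 in Ly6c2 monocytes had 6.82 and 2.35 CPM (33 and 14 UMIs, ratio 2.91, 1.51 to 5.88).

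Smaller shifts ran one way over the marrow gates, which share their 2 libraries and so are not separate observations. Spi1 was higher in the library labelled KO in 6 of 6 gates with all UMIs (ratios 1.09 to 1.21) and Cebpd in 5 of 6, from 1.04 in Mpo-high cells to 1.46 in mature neutrophils, with Hlf cells at 0.554 (0.325 to 0.899, 20 and 106 UMIs). Cebpa was lower in 6 of 6 gates, from 0.434 in mature neutrophils to 0.828 in monocytes, and its interval lay below 1 in 4 of them. In Elane-high cells Cebpa had a ratio of 0.726 (0.636 to 0.827) with all UMIs and 0.724 (0.517 to 1.01) after thinning. None of these was called, with all UMIs or after thinning. After thinning, the intervals of Cebpa in the 4 gates that met the minimum and of Spi1 in 6 gates included 1. Those of Cebpd lay above 1 in Elane-high cells, Ngp-high cells, mature neutrophils and monocytes, but not in Mpo-high cells. How many of all genes ran one way over these gates was not computed. Erythroid cells, left out of the comparison, also had more Cebpd labelled KO, at 34.0 CPM (28.4 to 40.5) against 21.55 CPM (16.8 to 27.2). Their Spi1 (7.77 and 14.3 CPM) and Cebpa (2.68 and 2.43 CPM) labelled KO and WT had overlapping intervals. Cebpb in mature neutrophils had a thinned ratio of 0.732 (0.663 to 0.810), but 0.955 with all UMIs, and 292 of 582 cells labelled KO against 132 of 146 labelled WT were deep enough to be thinned.

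In the spleen 1 of 21 pairs was called. Cebpb in Ngp-high cells was lower in the library labelled KO, at 355 CPM from a mean of 36.6 UMIs over the draws, against 636 CPM from 305.7 UMIs in the library labelled WT. The ratio was 0.559 (0.386 to 0.789), or 0.625 (0.572 to 0.681) with all UMIs. In this gate 1.43% of all genes were called, and 1.25% were lower in the library labelled KO. Retnlg, a gene of later neutrophils, was at 2014 CPM in Ngp-high cells labelled KO and 4269 CPM labelled WT, and Cxcr2 at 141 and 181 CPM, and the part of this difference in Cebpb was not tested. The call was lost when the gate thresholds were raised 2-fold (ratio 0.679).

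The other spleen gates had no called factor, against 4.87% of all genes in mature neutrophils, 4.77% in Ly6c2 monocytes, 3.66% in red pulp macrophages, 2.63% in type 1 and 1.04% in type 2 dendritic cells. With all UMIs 6 of 42 spleen pairs were called, against 3.0% of all genes in Ngp-high cells, 9.5% in mature neutrophils, 10.0% in Ly6c2 monocytes, 5.3% in red pulp macrophages, 2.88% in type 1 and 4.14% in type 2 dendritic cells. Zeb2 in mature neutrophils was higher in the library labelled KO, at 169 against 106 CPM (ratio 1.59, 1.41 to 1.80), and after thinning at 176 against 126 CPM (1.39, 1.15 to 1.68), with 469 and 638 UMIs before thinning. Retnlg, a gene of later neutrophils, was at 4698 and 15090 CPM in that gate labelled KO and WT, secondary granule genes were lower in it as given below, and their part in the Zeb2 difference was not tested. Spleen B cells, left out of the comparison, also had more Zeb2 labelled KO, at 68.7 CPM (62.15 to 75.8) against 44.3 CPM (38.0 to 51.3). Spleen T cells had 6.53 and 8.32 CPM labelled KO and WT, with overlapping intervals. Cebpb in type 2 dendritic cells was lower, at 148 against 267 CPM (ratio 0.555, 0.454 to 0.675), and after thinning at 133 against 260 CPM (0.513, 0.270 to 0.927), where the 2 level intervals overlapped.

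Spleen Ly6c2 monocytes, from 64 and 57 cells, held the other 3. Klf4 was at 120 CPM labelled KO and 273 CPM labelled WT (ratio 0.441, 0.336 to 0.575), Cebpd at 120 and 198 CPM (0.608, 0.457 to 0.805) and Batf3 at 53.7 and 17.6 CPM (3.05, 1.56 to 6.42). All 3 had under 30 UMIs after thinning. In the same gate H2-Ab1, a class II gene of antigen-presenting cells, was at 2071 CPM labelled KO and 292 CPM labelled WT, F13a1, a classical monocyte gene, at 660 and 1565 CPM, and Spic, a red pulp macrophage factor, at 52.2 and 1.47 CPM. The part of these differences in the 3 factors was not tested.

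In the tumor 0 of 18 pairs were called, against 4.09% of all genes in mature neutrophils, 5.33% in Ly6c2 monocytes, 0.972% in C1q macrophages and 2.43% in Arg1-high cells. With all UMIs 3 of 25 pairs were called, all higher in the library labelled KO, against 7.55% of all genes in mature neutrophils, 6.01% in Ly6c2 monocytes, 4.2% in C1q macrophages and 3.58% in Arg1-high cells. Cebpd was at 49.1 against 30.1 CPM in C1q macrophages (ratio 1.63, 1.31 to 2.04) and at 64.8 against 29.0 CPM in Arg1-high cells (2.24, 1.40 to 3.67). Keratin cells, left out of the comparison, also had more Cebpd labelled KO, at 55.4 CPM (48.7 to 62.7) against 36.7 CPM (31.2 to 42.9). Tumor T cells had 9.85 and 4.75 CPM labelled KO and WT, with overlapping intervals. After thinning, Cebpd in C1q macrophages had a ratio of 1.68 with an interval of 0.846 to 3.40. Spi1 in Ly6c2 monocytes had 178 UMIs (468 CPM) labelled KO and 64 UMIs (282 CPM) labelled WT. Its ratio was 1.66 (1.24 to 2.24), and 1.78 (0.964 to 3.46) after thinning. In tumor neutrophils Cebpd had 165 against 113 CPM, a ratio of 1.46 (1.20 to 1.79) that did not reach 1.5.

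**Figure D5:**
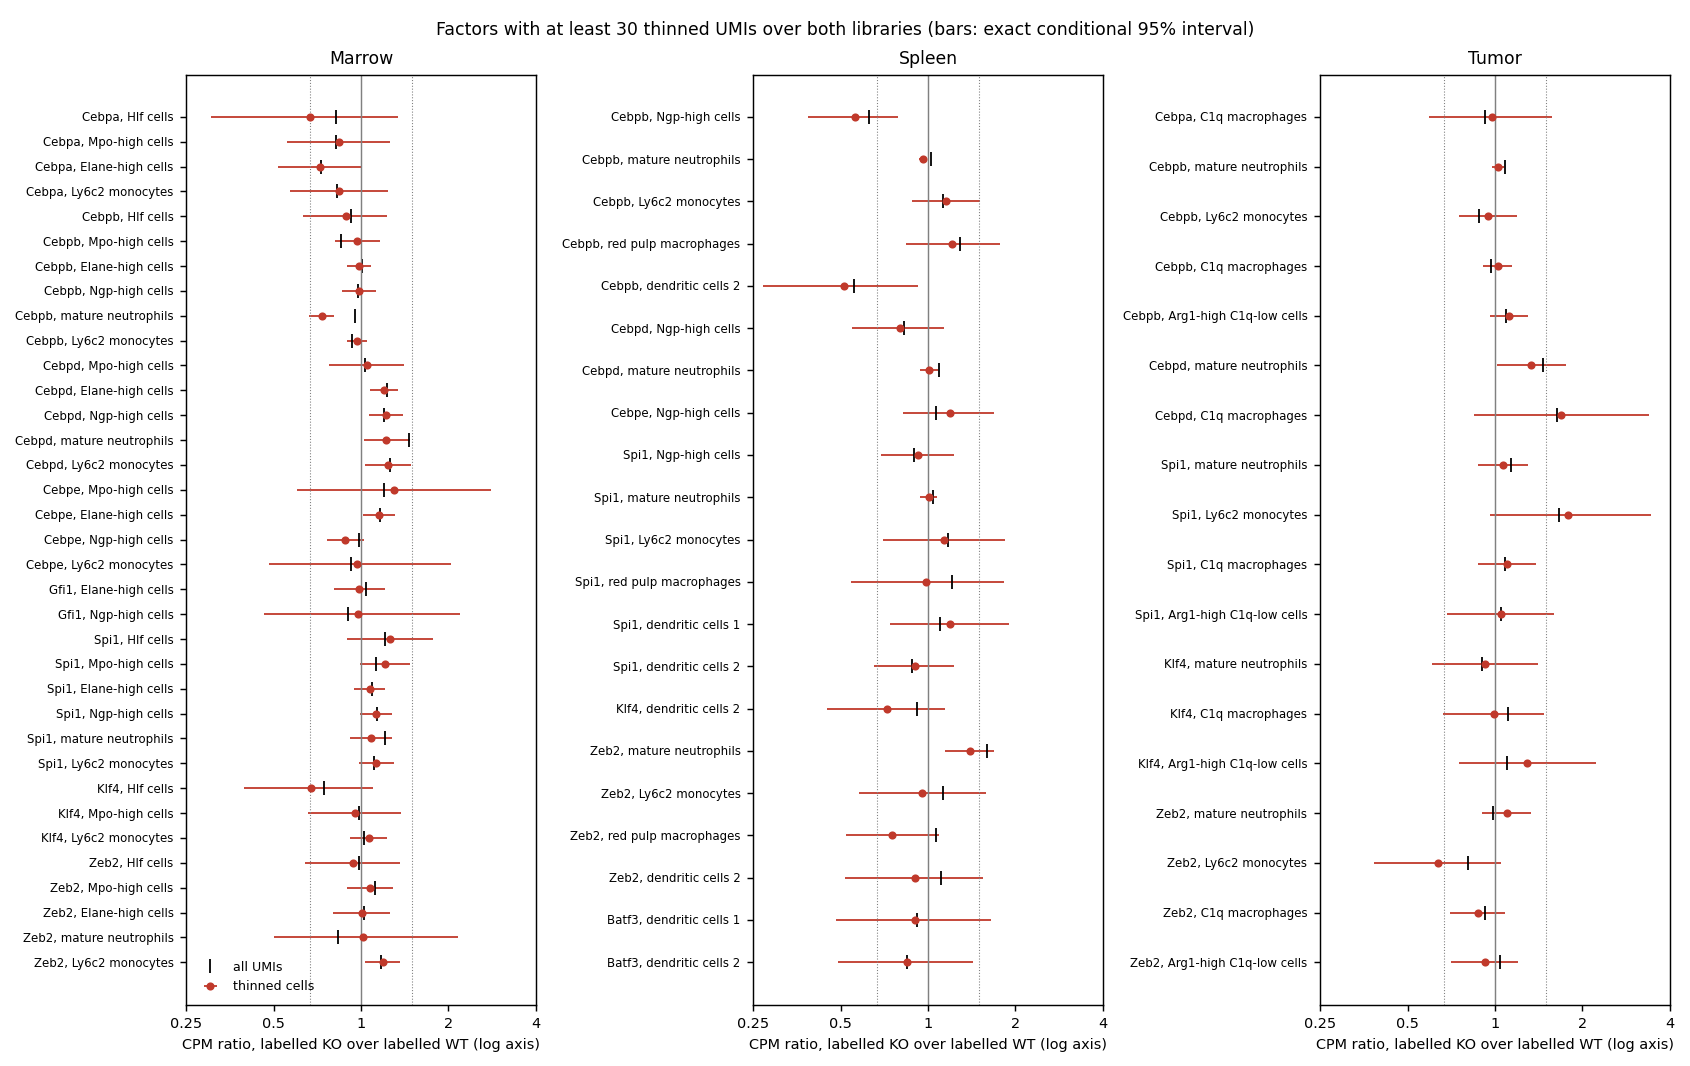
Ratio of the level in the library labelled KO to that in the library labelled WT (log axis) for the 74 factor and gate pairs with at least 30 thinned UMIs; points with bars are thinned cells with exact conditional 95% intervals, black ticks are all UMIs, and dotted lines mark 1.5-fold. Of the 74 intervals 8 lie above 1 and 4 below, and Cebpb in spleen Ngp-high cells is the pair that was called. The share of all genes with intervals above or below 1 was not computed, so these 2 counts have no background beside them.

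Genes known to act downstream of these factors were counted with the same rule at matched depth. Over all genes and the 16 gates together, 1.0% of gene and gate pairs were higher and 0.953% lower in the library labelled KO. Beside each list with calls stand the same shares over all genes, averaged with the list's pairs per gate as weights and not matched on the level of the genes. The 11 listed Spi1 targets, surface receptors and signalling genes such as Csf1r and Tyrobp, gave 1 call higher and 1 lower in 141 gene and gate pairs, both of Cybb, which also stands in the list of secondary granule genes. The shares over all genes were 1.23% and 1.33%. The list of azurophil genes tied to Cebpa was Mpo, Prtn3, Ctsg, Ms4a3, Csf3r, Azu2, Nkg7 and Serpinb1a, not all of which encode azurophil granule proteins. This list gave 0 higher and 15 lower in 45 pairs, where the shares over all genes were 0.595% and 0.954%. In marrow Ly6c2 monocytes 5 of 6 were lower in the library labelled KO (Mpo, Prtn3, Ctsg, Ms4a3 and Serpinb1a), with a median log2 ratio of -0.67 against -0.02 over all genes tested there, of which 0.436% were lower. That gate leaves out cells with 20 or more Mpo UMIs per 10000, so Mpo is a gene the gate limits, and 4 of 5 were lower without it. Those monocytes had Cebpa at 0.828 of the WT level, which was not called. In marrow mature neutrophils Mpo, Prtn3 and Ctsg were lower, 3 of 4, against 3.87% of all genes. The WT-labelled cells of that gate also held more Gata2, as given above. Mpo-high and Elane-high cells were 5.88% and 19.05% of marrow cells labelled KO, and 9.74% and 25.0% labelled WT. The part of progenitor cells or their free RNA in the neutrophil and monocyte counts was not tested. The other 7 calls were Ms4a3 in Mpo-high cells, Ctsg in marrow Ngp-high cells, Mpo and Prtn3 in spleen Ngp-high cells, Prtn3 and Serpinb1a in spleen mature neutrophils and Prtn3 in spleen monocytes.

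Secondary granule genes tied to Cebpe gave 9 higher and 14 lower in 74 pairs, where the shares over all genes were 1.13% and 1.41%. In spleen mature neutrophils 6 of 7 were lower in the library labelled KO (Ltf, Camp, Lcn2, Mmp8, Cybb and Cd177), with a median log2 ratio of -1.62 against 0.04 over all genes tested, of which 1.78% were lower. The part of the Retnlg difference in this count was not tested. Marrow mature neutrophils had 3 of 7 higher (Camp, Cybb and Lyz2), against 0.426% of all genes. Cebpe itself was at 9.03 and 7.16 CPM in the spleen gate and at 18.9 and 29.0 CPM in the marrow gate. Ngp-high cells were 1.34% of spleen cells labelled KO and 5.79% labelled WT, and 13.1% and 7.38% of marrow cells. The part of such cells or their free RNA in the counts of mature neutrophils was not tested. Elane-high cells had Camp, Fcnb and Lyz2 higher (0.258% of all genes were) and Lcn2 lower (0.219% were). Cebpe had a ratio of 1.15 (1.02 to 1.31) there and was not called. The part of Cebpe in the counts of these gates was not tested.

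The monocyte genes tied to Klf4 and Zeb2 gave 4 higher and 9 lower in 69 pairs (shares over all genes 1.26% and 1.17%), among them F13a1 and Fn1, lower in spleen monocytes and tumor C1q macrophages. Response genes of Cebpb and Cebpd gave 7 higher and 8 lower in 56 pairs (shares over all genes 1.37% and 1.55%). Il1b was higher in spleen neutrophils, spleen and tumor Ly6c2 monocytes and tumor Arg1-high cells. Ptgs2 was higher in spleen neutrophils, Cxcl2 in red pulp macrophages and Lcn2 in tumor C1q macrophages. Lcn2 was lower in Elane-high cells, marrow and tumor Ly6c2 monocytes and spleen neutrophils. Saa3 was lower in spleen and tumor neutrophils, and Cxcl2 in spleen Ngp-high cells and type 1 dendritic cells. Lcn2 also stands in the list of secondary granule genes, so its calls were counted in both. Dendritic genes tied to Irf4 and Batf3 gave no call in 3 and 21 pairs, and the 3 Irf4 pairs were in marrow gates, with none tested in dendritic cells. Among 229 pairs of other fate factors 11 were higher and 7 lower (shares over all genes 1.13% and 1.08%). Egr1 and Irf1, both immediate response factors, were among those higher in spleen neutrophils and lower in marrow neutrophils of the library labelled KO, the gates with 4.87% and 4.3% of all genes called. Klf2 stands in the list of other fate factors and in that of monocyte genes, so its calls were counted in both.

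Genes most like each factor over the 42 gates and libraries were ranked by Pearson r of log2(CPM + 1) among 7095 genes at 50 CPM or more in at least 1 of them. These are descriptions over points that share libraries. Spi1 was most like Csf2ra (r = 0.944), Skap2 and Nfam1. Cebpe was most like Cldn15 (0.900), Fcnb (0.891) and Lbp, and Cebpd most like Msrb1 (0.880), Trem3 and Pi16. Cebpb led with Snx18 (0.883), Klra2 and Tlr4, Cebpa with Gatm (0.852), Ccl9 and Ms4a6c, and Klf4 with Insig1 (0.908), Mndal and Scpep1. Zeb2 was most like Zeb2os (0.916), its overlapping antisense gene, so these counts may share reads, followed by Ctsa (0.825). Gfi1 had Ppic (0.810), Nkg7 and Ica1, Irf4 had Tmem123 (0.888) and Ikzf3, and Batf3 had Cyp27a1 (0.903), Zfp366 and Dnase1l3.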

How the data were processed

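The 6 libraries, 1 per tissue and genotype, each pooled 3 mice. Per the file headers, each deposited matrix holds raw UMI counts for every gene in every barcode. Cell Ranger is given as 6.0.0 with mm10 in the submitters' processing notes and as 6.1.0 in the file headers. A 5' kit and a 3' kit are both named in the labels' protocols, so the transcript end read is not settled. Antibody features, with 1 to 3 counts in 3 libraries, were left out.

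Barcodes were kept with 300 genes or more, 500 UMIs or more and no more than 10% mitochondrial UMIs. Doublets were removed with a simulation after Scrublet, at a rate of 0.8% per 1000 barcodes (4.68% to 7.79% of cells). Gates were cut on UMIs per 10000 of genes that are not among the 10 factors. Their thresholds were set after the gate genes' distributions were seen, and a cell in several gates was put in none. Outside all gates lay 33.2% and 36.2% of marrow, 15.1% and 15.6% of spleen and 67.3% and 74.0% of tumor cells labelled KO and WT. The factors, partner lists and gate outline were chosen with earlier results of these data known. All 10 factors are given in every gate with at least 50 cells in a library, and up to 3 genes most alike by a fixed rank, of which 1 is not reported here.

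With 1 library per group there was no test. Levels have exact Poisson, shares Clopper-Pearson and ratios exact conditional 95% intervals (Python 3.11.15, SciPy 1.17.1, NumPy 2.4.6). A count of 0 was given a floor of 3 counts. Averaging 10 thinning draws was chosen after a single draw was seen. The call rule and intervals were tested on counts simulated with counting error only, without variation between libraries. Thinning was checked on some of the real cells.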

Additional observations from a re-analysis of the deposited data

How the results depend on the processing

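With all UMIs in place of thinned cells, 2 of 44 marrow, 6 of 42 spleen and 3 of 25 tumor pairs were called, against 0 of 35, 1 of 21 and 0 of 18. Thinning to 1000 UMIs called 1 marrow pair, and thinning to 2000 called 2 spleen pairs, 1 higher and 1 lower in the library labelled KO, with Zeb2 in mature neutrophils at a ratio of 1.69. A single random draw, an alternative chosen after the data were seen, called 2 spleen pairs, and a fold of 2 called 0. With gate thresholds raised 2-fold, Cebpb in spleen Ngp-high cells (0.679) was not called and 1 other spleen pair, higher in the library labelled KO, was. The call on that Cebpb pair held under 9 of 11 alternatives, whose ratios ran from 0.470 to 0.679 over all 11. At 36.6 and 305.7 UMIs the other minimums could not change the call, and at a ratio of 0.559 the fold of 2 had to lose it. The causes were not tested. Without genes that a gate limits from above, an alternative added after the data were seen, the azurophil list had 0 higher and 14 lower in 43 pairs. Over 74 single ratios, 791 of 805 recomputed values moved by less than the counting interval and 14 moved further. The called Cebpb pair kept its direction under all 11 alternatives. No other pair had a called value whose sign could change. The fold of 2, the minimum of 100 UMIs and no minimum changed only the call rule. Their 74 values each could not move. Weighting cells equally kept the highest gate of 17 of 20 factor and library combinations. The exceptions were Cebpa labelled WT and Zeb2 in both libraries. Few UMIs limit Irf4, Batf3 and Gfi1 outside the gates where they were high. No paired analysis was possible because each tissue and genotype has 1 library.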
